A study of Danio rerio with 30 samples.

Results

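The lens crystallin genes are the alpha, beta and gamma crystallins of zebrafish, taken here as every gene whose symbol begins with cryaa, cryab, cryba, crybb, crygm, crygn or crygs, so that the cryptochromes, light-sensing proteins with similar symbols, stay out. Of 56 such symbols, 50 were kept because they had 10 or more reads in 3 or more libraries, out of 18952 genes that passed the same rule and 31846 symbols in the table. The 50 are 2 alpha, 13 beta, 20 gamma M2d, 12 other gamma M, 2 gamma N and 1 gamma S crystallins. The 6 symbols left out were cryaba with 14 reads over all libraries, crygm4 with 71, crygm6 with 8, crygs2 with 30, crygs3 with 24 and crygs4 with 97. For the tests of differences, 48 of the 50 had enough reads; cryabb and crybb3 did not.

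Crystallins fill the fiber cells of the eye lens at very high concentration and give it transparency and refractive power. Alpha crystallins belong to the small heat shock proteins and act as chaperones that keep other proteins soluble, while beta and gamma crystallins share a Greek key fold, beta crystallins assembling into oligomers and gamma crystallins staying monomeric. Fish lenses are dense and spherical, and they use a large family of gamma M crystallins that mammals lack. In a whole larva the crystallin transcripts are taken here as mainly those of the lens, a tiny part of the body, although no tissue was measured alone. Their share of the RNA also depends on the RNA of all other tissues.

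RNA-seq was made from the whole body of AB wild-type zebrafish at 120 hours post fertilization (hpf). Larvae had been treated with 1 of 3 parabens, preservatives that differ in the length of their alkyl ester chain: methylparaben (MtP), ethylparaben (EtP) and propylparaben (PrP). They were set against a group labelled Control. Each paraben was given at 3 doses labelled BMD5/50, BMD5/10 and BMD5, whose concentrations the labels do not state, so compounds are set side by side by label, and the concentrations behind one label may differ. The 10 groups hold 3 libraries each, numbered 1 to 3, and nothing in the labels ties the numbers to separate clutches. The p-values therefore reflect the spread among these libraries alone, which may be technical. In the main tests between groups, which held no replicate term, this spread includes the difference between replicate numbers given below.

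Total read counts ran from 9711814 to 24468093 per library. Over all 18543 tested genes, the libraries numbered 1 stood apart from those numbered 2 and 3, with 56.4% of genes called different between them, whereas 0% were called in any of the 21 comparisons between groups. The libraries numbered 1 also had lower levels of all measured marker genes of liver (14 of 14 called lower), exocrine pancreas (14 of 14), epidermis (15 of 15) and skeletal muscle (15 of 15), and higher levels of neuron markers (14 of 15 called higher). The labels do not say what the number stands for. Library 1 of PrP BMD5/50 and library 1 of PrP BMD5/10 stood apart for the crystallins, as described below, though not for these alone. Library 1 of PrP BMD5/10 also had the lowest mean levels of skeletal muscle and epidermis markers in the series. Its mean level of photoreceptor genes was the highest. In library 1 of PrP BMD5/50 the mean of the lens fiber genes other than crystallins was the lowest. The main results these 2 libraries touch are also given without them.

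Crystallins were among the most abundant transcripts of the larva. Levels are compared between genes in TPM, a unit that corrects for transcript length and library size. The 50 genes summed to between 49839 and 131390 TPM per library, with a median of 70845 TPM, and 11 of them were among the 100 genes of highest mean TPM. The distribution was split into a high and a low class: 30 genes averaged 1000 TPM or more and made up 98.6% of crystallin TPM, 10 lay between 10 and 1000 TPM, and 10 lay under 10 TPM. The gamma M2d genes held 64.8% of crystallin TPM and the beta genes 28.2%, followed by the other gamma M genes with 3.80%, gamma N with 3.05% and alpha with 0.118%.

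**Figure D1:**
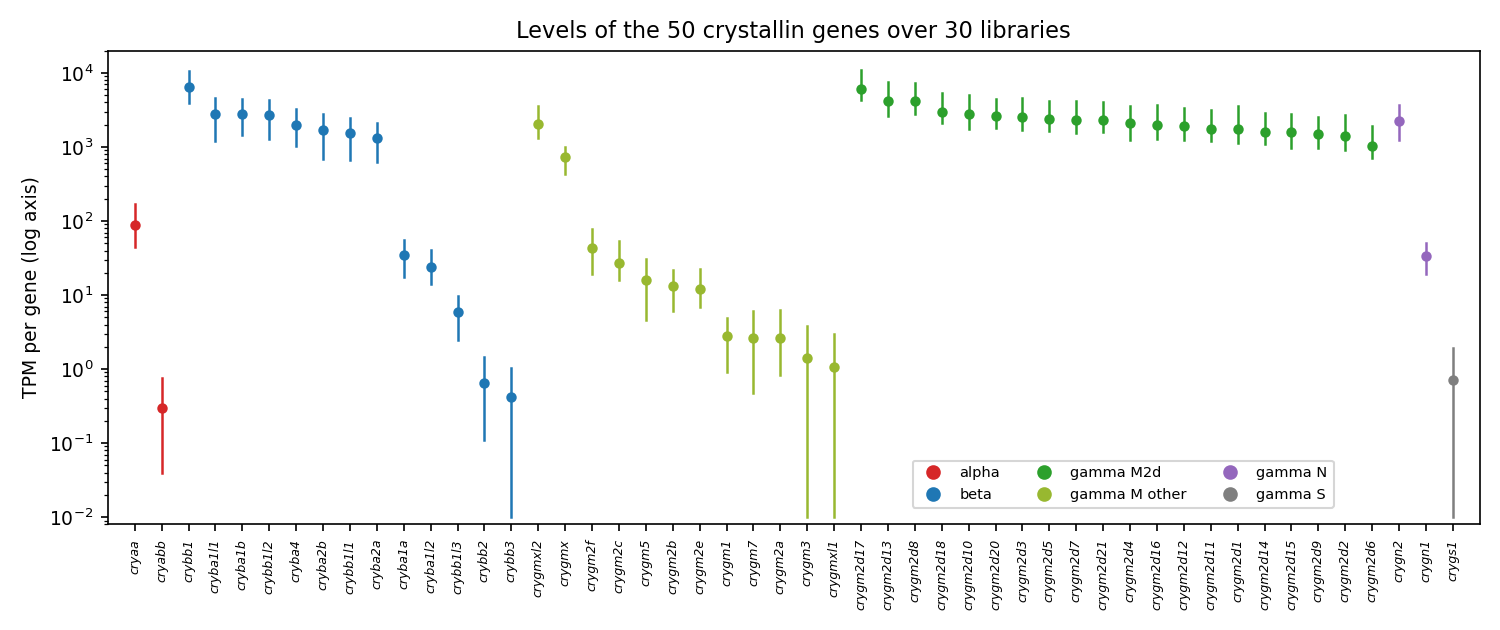
Level of each of the 50 crystallin genes in TPM on a log axis, grouped by subfamily; points are means and lines run from the lowest to the highest of 30 libraries, with values under 0.01 drawn at 0.01. All 20 gamma M2d genes lie above 1000 TPM, whereas the alpha, beta and other gamma M genes span several orders of magnitude.

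The alpha crystallins were scarce beside the others. The gene cryaa (chromosome 1, 29096881 to 29100923, plus strand), which encodes the lens-restricted alpha A chaperone, averaged 89.6 ± 36.3 TPM (SD, n = 30), ranging from 44.1 to 171 TPM, and ranked 32 of 50. Its paralog cryabb, one of a pair of alpha B genes, averaged 0.294 ± 0.201 TPM (SD, n = 30), and the other alpha B gene, cryaba, did not reach the read minimum. The cryabb span overlaps C5H11orf1 on the opposite strand by 4080 bases, and the sources do not say whether counting used strand, so its few reads cannot be assigned with certainty.

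Among the beta crystallins, crybb1 (chromosome 10, 44021147 to 44027391) was the most abundant crystallin of all at 6459 ± 1538 TPM (SD, n = 30), and it stood above the second-ranked gene in 24 of 30 libraries. Next among the beta genes came cryba1l1 at 2823 ± 685 TPM, cryba1b at 2795 ± 630 TPM and crybb1l2 at 2682 ± 553 TPM (SD, n = 30 each). At the other end, crybb2 averaged 0.647 ± 0.372 TPM and crybb3 0.417 ± 0.221 TPM (SD, n = 30 each), although crybb2 is a major crystallin of the mammalian lens. Each of 4 beta A genes lies beside a beta B gene on the opposite strand, and these pairs were not expressed at one common level. In the pair on chromosome 10, cryba4 averaged 2013 ± 445 TPM against 6459 ± 1538 TPM for crybb1 (SD, n = 30), a ratio of 0.262 to 0.346 over the libraries. On chromosome 14 the order was turned round, with cryba1l1 above crybb1l1 in 30 of 30 libraries by a ratio of 1.53 to 2.196. The 2 genes of the pair on chromosome 1, cryba1l2 and crybb1l2, lie 4953 bases apart and averaged 24.3 ± 7.27 and 2682 ± 553 TPM (SD, n = 30 each). The last pair, cryba1a and crybb1l3 on chromosome 15, was low throughout, at 34.9 ± 8.04 and 5.97 ± 1.81 TPM (SD, n = 30 each), and the 8252 bases of crybb1l3 lie within the span of cryba1a on the other strand, so reads of the 2 genes may be shared.

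The gamma crystallins were dominated by an array on chromosome 9. Between 21993092 and 22366295, a stretch of 373 kb, the table places 33 crystallin symbols, 30 of them kept, and 3 other genes. The 20 gamma M2d symbols fill 248 kb of it, from 22091161 to 22339582, all on the minus strand, and every one of them averaged at least 1019 TPM. In contrast, the 10 other gamma M genes kept in the same stretch, including crygm2a, crygm2b and crygm2c, all averaged 42.6 TPM or less. The highest symbol of the array was crygm2d17 at 6093 ± 1626 TPM, followed by crygm2d13 at 4191 ± 1084 TPM and crygm2d8 at 4150 ± 1083 TPM (SD, n = 30 each). The symbol crygm2d17 stands for 2 gene IDs, with 416810 reads at 22127117 to 22129839 and 837860 reads at 22187031 to 22188117. A separate list of gene names calls the second ID crygm2d19. All values given under crygm2d17 are therefore sums over 2 genes, and its rank is that of the sum. The M2d copies are taken here as near identical, although no sequences were compared. Reads may therefore have been split between them by the counting, and differences among single copies are uncertain for that reason.

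**Figure D2:**
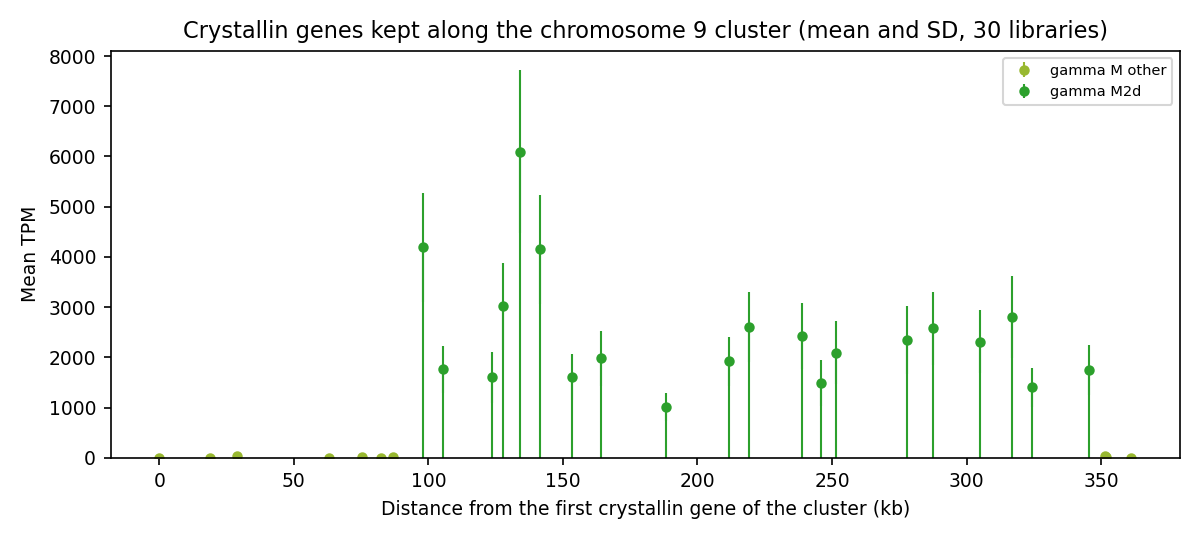
Mean level in TPM (points) with its SD over 30 libraries (bars) of each kept crystallin gene along the chromosome 9 cluster, by distance in kb from the first crystallin gene. The gamma M2d genes stand in 1 block between 1019 and 6093 TPM, and the other gamma M genes on both sides of it lie near 0 on this scale.

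Outside the array, high gamma crystallin levels came from crygn2 on chromosome 24 at 2280 ± 534 TPM and from crygmxl2 on chromosome 12 at 2022 ± 577 TPM, and crygmx, the neighbour of crygmxl2, averaged 737 ± 160 TPM (SD, n = 30 each). The gene crygn1 on chromosome 2 was far lower at 34.0 ± 6.96 TPM. Of the gamma S crystallins, of which the mammalian form is a main protein of the outer lens, only crygs1 was kept, at 0.704 ± 0.566 TPM (SD, n = 30).

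Part of the crystallin reads was assigned to transcripts annotated as retained introns, in which an intron is left in the RNA. Such transcripts took 5.25% to 17.8% of the crystallin reads of a library, with a median of 8.10%. Crystallins in turn made up between 27.4% and 53.8% of all reads assigned to retained-intron transcripts, with a median of 39.1%. The share differed widely between M2d genes: over all libraries it was 83.6% of the reads of crygm2d21, 50.6% of crygm2d3, 33.9% of crygm2d7 and 31.5% of crygm2d17, but 6.50% of crygm2d9, 2.78% of crygm2d5 and 2.36% of crygm2d2. These shares also moved with the replicate number, for example 39.7% ± 6.73 (SD, n = 10) in libraries numbered 1 against 31.0% ± 6.89 (SD, n = 20) in the others for crygm2d7. How reads shared between transcripts or copies were assigned is not given. The shares therefore need not equal the part of the RNA in which an intron was left.

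One library stood far outside the rest in this measure. In library 1 of PrP BMD5/50, 28.9% of gamma M2d reads were on retained-intron transcripts, against 13.7% and 19.5% in the other 2 libraries of its group and 16.1% to 18.5% in the Control libraries. The lowest of the 30 libraries had 10.8%. For crygm2d9 the share in that library was 49.8%, with 22.1% in library 3 of the same group and 0.673% in library 2, while the Control libraries had 16.2%, 11.4% and 6.70%. For crygm2d5 it was 37.1%, with 11.6% in library 3 and 0.772% in library 2, against 5.84%, 3.24% and 1.81% in the Control libraries. For both genes, library 2 of PrP BMD5/50 lay below all 3 Control libraries and the other 2 lay above them, so the groups overlapped.

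Crystallin reads made up 2.92% to 8.02% of all reads of a library, with a median of 4.57%. The number of reads behind a share, at least 319727, leaves a 95% Wilson interval of at most 0.0151 percentage points to either side, which covers counting error only. Library by library, the share was 5.47%, 4.55% and 5.34% in MtP BMD5/10 and 6.36%, 3.73% and 4.14% in MtP BMD5 (libraries 1, 2 and 3 in this order, as in all lists of values), with the Control libraries at 5.05%, 4.04% and 5.28%. In EtP BMD5 all 3 libraries, at 4.69%, 4.21% and 3.62%, lay below the 2 higher Control libraries. The highest share of the series, 8.02%, was in library 1 of PrP BMD5/10, whose other libraries had 3.82% and 4.83%. The lowest, 2.92%, was in library 1 of PrP BMD5/50, whose others had 3.94% and 4.58%. In 9 of 10 groups library 1 was not the lowest of its group. The mean share was 5.65% ± 1.37 in libraries numbered 1, 4.13% ± 0.39 in those numbered 2 and 4.49% ± 0.55 in those numbered 3 (SD, n = 10 each). For the beta genes alone it was 2.04%, 1.67% and 1.78%, and for the M2d genes 3.21%, 2.15% and 2.38%. These are shares of all reads, before the scaling used in the tests. Here as in the rest of the results, the RNA came from whole larvae. A smaller lens, less crystallin RNA per lens cell and more RNA from other tissues therefore cannot be told apart.

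**Figure D3:**
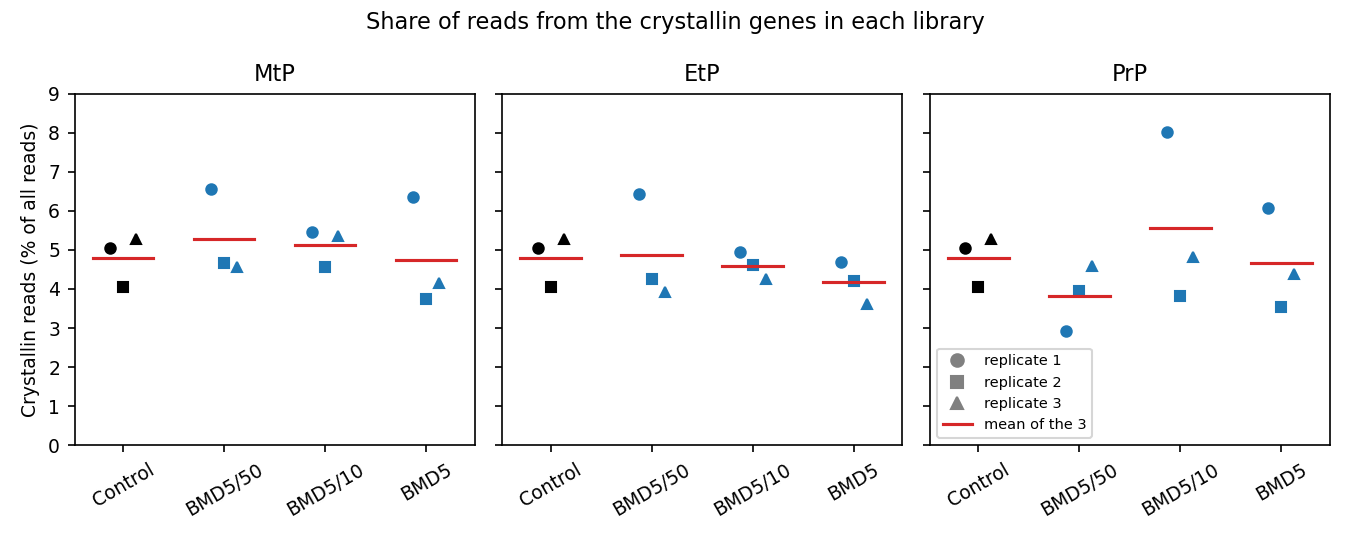
Crystallin reads as a percentage of all reads of each library, for MtP, EtP and PrP with the same Control libraries repeated in each panel; symbols mark the replicate number and red lines the mean of 3 libraries. Each treated group has at least 1 library within the Control range of 4.04% to 5.28%, and the lowest and highest libraries, at 2.92% and 8.02%, are both PrP libraries numbered 1.

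The 2 extreme libraries were extreme across the family. After scaling for library size and composition (CPM, scaled read counts used only within a gene), 38 of the 48 tested genes, among them 17 of the 20 M2d genes, were at their lowest of all 30 libraries in library 1 of PrP BMD5/50, and 43 lay below all 3 Control libraries there. Conversely, 32 genes, among them all 20 M2d genes, were at their highest in library 1 of PrP BMD5/10, and 41 lay above all 3 Control libraries. The matching shares of all tested genes in these 2 libraries are not given. These counts therefore do not set the crystallins apart from other genes. For crybb1 the values were 2518 CPM in the first of these libraries and 6480 CPM in the second, with 4176, 4416 and 5725 CPM in the Control libraries. The SD of log2 CPM over the 30 libraries had a median of 0.32 across the 48 genes and 0.30 across all tested genes. It was smallest for crygm2d17, summed over 2 gene IDs, at 0.27 and largest for crygs1 at 0.91, a gene with 140 reads in all.

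No crystallin gene was called different between any paraben group and Control. With edgeR's quasi-likelihood test and Benjamini-Hochberg adjustment over all tested genes, 0 of 48 passed an adjusted p of 0.05 in each of the 9 comparisons, where the background share of called genes was 0% as well, and DESeq2 called 0 of 48 in each of them too. At an unadjusted p under 0.05, MtP had 0 of 48 genes at BMD5/50, 1 at BMD5/10 and 1 at BMD5, against 4.73%, 1.81% and 1.26% of all tested genes. EtP had 0, 1 and 1 in the same order of labels, against 2.84%, 3.66% and 2.05% of all tested genes. PrP had 2, 0 and 0, against 1.57%, 2.5% and 1.86%, and 2 of 48 genes are 4.17%. With all libraries numbered 1 left out, these counts were higher for several groups, again with 0 of 48 called after adjustment. EtP then had 16 of 48 genes at BMD5/50, 11 at BMD5/10 and 21 at BMD5, or 33.3%, 22.9% and 43.8%, against 13.1%, 15.1% and 12.4% of all tested genes, and 129, 402 and 68 genes in all were called. MtP had 0, 0 and 6, against 10.9%, 5.59% and 2.66% of all tested genes. PrP had 0, 7 and 8, against 2.92%, 6.55% and 6.98%, and no gene was called in the MtP and PrP comparisons with Control. These counts rest on the libraries numbered 2 and 3 alone. The M2d copies among the 48, whose reads may be shared, do not count as independent genes. The median standard error of a member's log2 fold change was about 0.25, and in each of the 9 comparisons 36 to 39 of the 48 genes had a 95% interval that lay wholly within a 2-fold change, that is, between -1 and 1 on the log2 scale. These standard errors and intervals include the spread between replicate numbers, which the model did not hold. The 9 comparisons share the same 3 Control libraries.

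**Figure D4:**
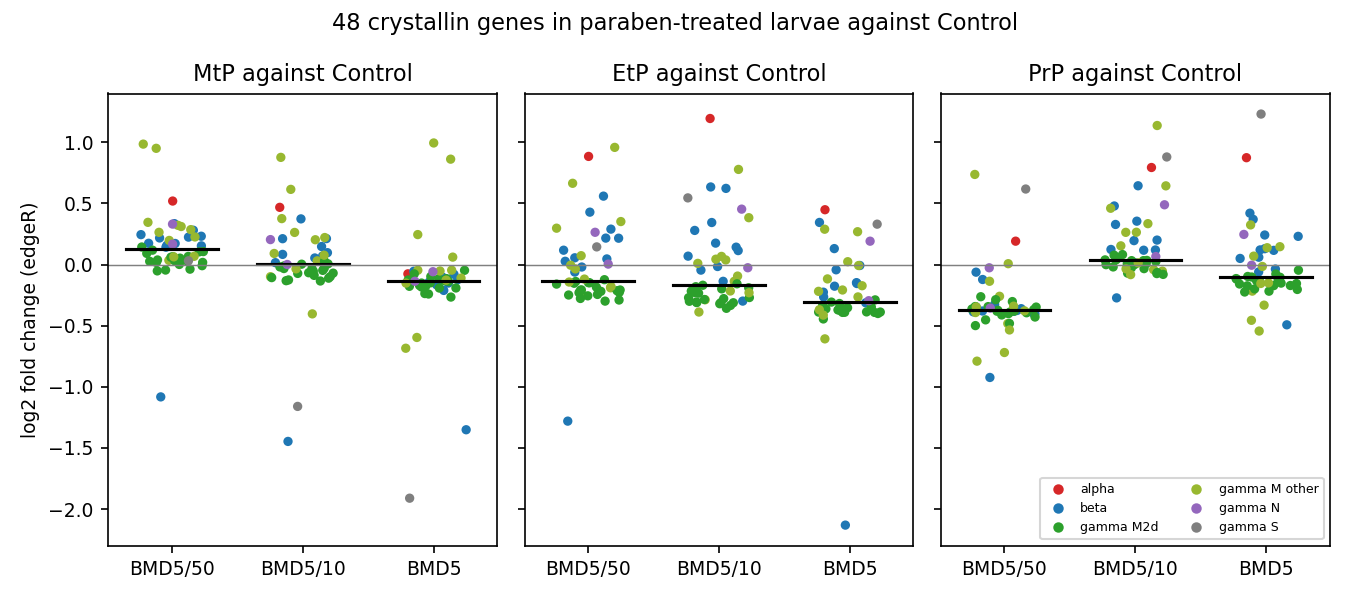
Fitted log2 fold change of each of 48 crystallin genes in paraben-treated larvae against Control, by compound and dose label, coloured by subfamily; black lines are medians over the 48 genes. Medians range from -0.37 to 0.13, and the few points beyond 1 in size are genes of few reads such as crybb2 and crygs1, apart from cryaa in EtP BMD5/10.

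With MtP, no crystallin was called and the medians lay on both sides of Control. The median log2 fold change was 0.13 at BMD5/50, 0.00 at BMD5/10 and -0.14 at BMD5, with 43, 26 and 4 of 48 genes above 0, whereas the median over all tested genes was 0.00 in all 3. The most abundant crystallin, crybb1, had 5297, 3854 and 4391 CPM in the MtP BMD5 libraries, against 4176, 4416 and 5725 CPM in the Control libraries, with library 1 the highest of the treated and the lowest of the Control libraries. Its log2 fold change was -0.08 ± 0.23 (SE; 95% interval -0.55 to 0.39; edgeR adjusted p = 0.99999). The crystallin of smallest unadjusted p at this dose was crygm2b, a low gamma M gene beside the array, at 4.45, 2.41 and 4.07 CPM in MtP BMD5 against 5.40, 4.21 and 8.08 CPM in Control (log2 fold change -0.68 ± 0.32 SE; unadjusted p = 0.0405 and adjusted p = 0.99999 by edgeR). One gene, crygs1, had all 3 MtP BMD5 libraries below all 3 Control libraries, against 2.65% of all tested genes, but with 3 reads in the MtP BMD5 group and 11 in Control, and none lay above Control without overlap, against 3.09% of all tested genes. In MtP BMD5/50, crygm3 and crygmxl1 lay above Control without overlap, or 4.17% of the 48 against 6.8% of all tested genes. These 2 genes had only 238 and 300 reads over all 30 libraries. None of the 48 lay below Control without overlap there, against 4.56% of all tested genes. Leaving out all libraries numbered 1 moved the MtP BMD5 median to -0.36, and leaving out Control library 3 moved it to 0.03, so the direction rests on single libraries. With 1 library left out, the median ran from 0.02 to 0.28 at BMD5/50 and from -0.08 to 0.15 at BMD5/10. Paired by number, 7 of 48 genes were higher and 0 lower in all 3 pairs at BMD5/50, 7 higher and 2 lower at BMD5/10, and 0 higher and 3 lower at BMD5. The matching shares of all tested genes are not given. The alpha A gene cryaa was higher in all 3 pairs at BMD5/50, by log2 differences of 0.74, 0.85 and 0.14, and at BMD5/10, by 0.16, 0.66 and 0.48. Its fitted log2 fold changes were 0.52, 0.47 and -0.08 at BMD5/50, BMD5/10 and BMD5, each with an SE of 0.47, and none was called.

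With EtP, the gamma M2d genes and cryaa lay on opposite sides of Control, though none passed the test. All 20 M2d genes were below 0 at each dose, with medians of -0.21 at BMD5/50, -0.28 at BMD5/10 and -0.37 at BMD5, and a range at BMD5 of -0.45 to -0.29. Without Control library 3 these M2d medians were -0.07, -0.11 and -0.22, with 18, 19 and 20 genes below 0. The M2d direction was not particular to EtP. All 20 M2d genes were also below 0 in PrP BMD5/50, MtP BMD5 and PrP BMD5, with medians of -0.38, -0.16 and -0.15. Without Control library 3 those medians were -0.23, -0.01 and 0.02, with 20, 12 and 9 genes below 0. The cryaa log2 fold changes in those 3 groups were 0.19, -0.08 and 0.87 with all libraries. Without libraries numbered 1, the EtP M2d medians were -0.47 at BMD5/50, -0.36 at BMD5/10 and -0.51 at BMD5, with 20 genes below 0. In the same order, the MtP medians were then -0.11, -0.15 and -0.37, with 19, 20 and 20 genes below 0. The PrP medians were -0.26, -0.35 and -0.37, with 20 genes below 0 in each. With all libraries in the fit, the EtP medians over all 48 crystallins were -0.13, -0.16 and -0.31 in the same order of labels. They were 0.02, 0.02 and -0.15 without Control library 3 and -0.36, -0.20 and -0.43 without the libraries numbered 1. Without library 1 of EtP BMD5/50 the median at that dose was -0.32. The highest M2d symbol, crygm2d17, had 2827, 2606 and 2258 CPM in the EtP BMD5 libraries, against 3071, 2953 and 3933 CPM in the Control libraries, so the groups did not overlap. Its log2 fold change was -0.37 ± 0.23 (SE; 95% interval -0.85 to 0.10; edgeR adjusted p = 0.99991). In all, 13 of 48 genes, crybb1 and 12 M2d genes, had all EtP BMD5 libraries below all Control libraries, or 27.1% of them against 3.34% of all tested genes, and in EtP BMD5/10 it was 6 of 48, all M2d genes, or 12.5% against 3.26%. The M2d genes among them are neighbouring copies, taken here as near identical, whose reads may be shared, so they do not count as independent genes. At EtP BMD5/50 no crystallin was without overlap in either direction, against 3.78% of all tested genes above and 3.3% below Control.

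The alpha A gene cryaa had 56.7, 228 and 210 CPM in the EtP BMD5/10 libraries, against 51.9, 59.7 and 105 CPM in the Control libraries. Libraries 2 and 3 of EtP BMD5/10 were above every Control library, and library 1 lay within the Control range. The log2 fold change was 1.19 ± 0.47 (SE; 95% interval 0.22 to 2.17), with an unadjusted p of 0.0187 and an adjusted p of 0.99931 by edgeR. Without the libraries numbered 1 it was 1.41, with an adjusted p of 0.0622, in a fit that called 402 genes in all. At the other EtP doses cryaa had 75.6, 152 and 171 CPM at BMD5/50 and 50.7, 125 and 119 CPM at BMD5, with log2 fold changes of 0.88 ± 0.47 and 0.45 ± 0.47 (SE). Among the other crystallins at BMD5, crybb2 had the smallest unadjusted p, at 0.188, 0.194 and 0.0800 CPM in EtP BMD5 against 0.772, 0.0826 and 1.26 CPM in Control (log2 fold change -2.13 ± 0.76 SE; unadjusted p = 0.0101 and adjusted p = 0.99991 by edgeR), and these values rest on 6 and 28 reads.

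The other genes of the lens fiber lay mostly above Control in the EtP groups, though not in these alone. Their mean log2 CPM in each library of MtP BMD5/10, PrP BMD5/10 and PrP BMD5 was also above that of the Control library of the same number. In MtP BMD5, MtP BMD5/50 and PrP BMD5/50 at least 1 library was below it. Of 17 tested lens fiber genes that are not crystallins, 16 were above 0 in EtP BMD5/50 with a median log2 fold change of 0.56, 15 in EtP BMD5/10 with a median of 0.71 and 13 in EtP BMD5 with a median of 0.24, while 51.5%, 50.9% and 52.6% of all tested genes were above 0. By edgeR 0 of the 17 were called in these comparisons, and 3, 7 and 0 had an unadjusted p under 0.05. The connexins of the lens, gja8a and gja8b, had, in EtP BMD5/10, log2 fold changes of 1.95 ± 0.75 and 1.61 ± 0.62 (SE), unadjusted p of 0.0161 and 0.0164 and an adjusted p of 0.99931 for both by edgeR. The 14 liver marker genes, averaged on the log2 CPM scale, stood at 6.29 to 6.82 in libraries 2 and 3 of the EtP groups and at 2.79 to 3.37 in library 1 of each, against 3.89 to 4.32 in the Control libraries. In the PrP groups this mean was 4.92 to 6.40 in libraries 2 and 3 and 2.37 to 2.71 in library 1. In the MtP groups it was 4.36 to 5.39 and 2.80 to 3.61 in the same order. The part of the liver genes in the crystallin values was not tested.

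With PrP, the crystallin medians were below 0 at the lowest dose and near 0 at the other 2, and they moved with single libraries. Over 48 genes they were -0.37 at BMD5/50, 0.04 at BMD5/10 and -0.10 at BMD5, with 4, 34 and 16 genes above 0. With 1 library left out, the BMD5/50 median stayed below 0, between -0.56 without library 3 of that group and -0.14 without its library 1. The BMD5/10 median ran from -0.20 without library 1 of its group to 0.24 without Control library 3. The BMD5 median ran from -0.22 without library 1 of its group to 0.07 without its library 2, and it was -0.30 without all libraries numbered 1. Paired by number, 26 of 48 genes were lower in PrP BMD5/50 than in Control in all 3 pairs, with median log2 differences of -0.78, -0.06 and -0.31 in pairs 1, 2 and 3. There 1 gene was higher in all 3 pairs. In PrP BMD5/10 it was 0 lower and 8 higher, and in PrP BMD5 3 lower and 5 higher. In EtP it was 0 lower and 3 higher at BMD5/50, 10 and 5 at BMD5/10, and 20 and 1 at BMD5. The matching shares of all tested genes are not given, and M2d copies do not count as independent genes. These counts therefore do not set the crystallins apart from other genes. The gene crygm2d13 had 1011, 1331 and 1756 CPM in PrP BMD5/50 and 1771, 1708 and 2316 CPM in Control, with library 3 of PrP BMD5/50 within the Control range (log2 fold change -0.50 ± 0.23 SE; unadjusted p = 0.0417 and adjusted p = 0.9999 by edgeR). The other gene at an unadjusted p under 0.05 there was crygm2b, with a log2 fold change of -0.72 ± 0.32 (SE). Without library 1 of PrP BMD5/50, 0 of 48 genes had an unadjusted p under 0.05 by edgeR. For cryaa the libraries had 51.4, 123.1 and 72.7 CPM in PrP BMD5/50, 115, 94.4 and 166 CPM in PrP BMD5/10 and 116.1, 79.8 and 201 CPM in PrP BMD5. The log2 fold changes against Control were 0.19, 0.79 and 0.87, each with an SE of 0.47. In PrP BMD5/10 the gene of smallest unadjusted p was crygn1 (log2 fold change 0.49 ± 0.25 SE; unadjusted p = 0.0632 by edgeR). One gene, crybb1l3, lay above Control without overlap in both PrP BMD5/10 and PrP BMD5, against 3.45% and 3.61% of all tested genes.

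Set against each other at matched dose labels, no crystallin gene was called different between parabens: 0 of 48 were called in each of 9 comparisons by edgeR and 0 by DESeq2, beside a background of 0%. EtP was below MtP in median at every label, with log2 fold changes of -0.21 at BMD5/50, -0.14 at BMD5/10 and -0.18 at BMD5, and all 20 M2d genes were below 0 in each. These medians were -0.10 without library 1 of MtP BMD5/50, -0.05 without library 3 of MtP BMD5/10 and -0.02 without library 1 of MtP BMD5, and at BMD5/50 -0.39 without library 1 of EtP BMD5/50. PrP was below EtP at BMD5/50, with a median of -0.25, and above it at BMD5/10 and BMD5, with medians of 0.21 and 0.23. Without library 1 of PrP BMD5/10 the BMD5/10 median became -0.07, and without library 1 of PrP BMD5/50 the BMD5/50 median became -0.06, where 0 genes kept an unadjusted p under 0.05. Without library 1 of PrP BMD5 the BMD5 median was 0.10. Other libraries moved them the other way, to -0.48 at BMD5/50 without library 3 of PrP BMD5/50, 0.38 at BMD5/10 without library 2 of PrP BMD5/10 and 0.40 at BMD5 without library 2 of PrP BMD5. The 95% interval of the EtP against MtP difference lay within a 2-fold change in 39 of 48 genes at BMD5/50, 38 at BMD5/10 and 36 at BMD5. At an unadjusted p under 0.05, EtP against MtP had 1 crystallin at each label, against 6.99% of all tested genes at BMD5/50, 3.12% at BMD5/10 and 3.82% at BMD5. PrP against EtP had 3, 1 and 0 in the same order, against 3.47%, 1.66% and 1.76% of all tested genes, and PrP against MtP had 0 at BMD5/10 and 2 at BMD5, against 1.21% and 2.41%. A p above the threshold does not show that the compounds act alike.

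With all libraries in the fit, the widest median difference between compounds was that of PrP BMD5/50 against MtP BMD5/50, at -0.46 on the log2 scale with 46 of 48 genes below 0. Without the libraries numbered 1 it was -0.19, and EtP BMD5/50 against MtP BMD5/50 was wider at -0.32. With all libraries, PrP BMD5/50 against MtP BMD5/50 held 16 of 48 genes at an unadjusted p under 0.05, 8 of them beta crystallins, or 33.3% of them against 2.79% of all tested genes, but none after adjustment. The gene of smallest p, cryba2a, had 469, 978 and 1032 CPM in PrP BMD5/50 and 1297, 1200 and 1159 CPM in MtP BMD5/50, without overlap (log2 fold change -0.56 ± 0.23 SE; unadjusted p = 0.0206 and adjusted p = 1 by edgeR). The share of all tested genes without overlap in this comparison is not given, and cryba2a was named for its p. Its lack of overlap therefore adds no support. For cryba1l1 the values were 750, 1811 and 1614 CPM in PrP BMD5/50 and 2193, 2201 and 2013 CPM in MtP BMD5/50. Without library 1 of PrP BMD5/50 the median was -0.27 and 0 genes had an unadjusted p under 0.05. The count was 3 without library 1 of MtP BMD5/50, 10 without its library 3, 33 without library 3 of PrP BMD5/50 and 1 when only the 6 compared libraries were fitted. With the replicate number as a block it was 26, again with 0 called after adjustment. The cryba2a span overlaps tmem198b on the opposite strand over all of its 3430 bases, with 14971 reads assigned to tmem198b and 451225 to cryba2a.

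Among the low genes, crygs1 had the smallest unadjusted p in PrP BMD5 against MtP BMD5 (unadjusted p = 0.0144 and adjusted p = 0.99966 by edgeR's quasi-likelihood test), resting on 20 reads in PrP BMD5 and 3 in MtP BMD5. In crygm7, EtP BMD5/10 had 1.02, 1.09 and 1.03 CPM and MtP BMD5/10 had 1.48, 1.79 and 2.39 CPM, without overlap (log2 fold change -0.85 ± 0.41 SE; unadjusted p = 0.0494 and adjusted p = 0.9965 by edgeR). Here too the matching share of all tested genes is not given, and crygm7 was named as the gene of smallest p. At BMD5 the corresponding gene was crygm2f, with 13.8, 11.2 and 8.16 CPM in EtP and 22.9, 15.4 and 14.4 CPM in MtP (log2 fold change -0.67 ± 0.32 SE; unadjusted p = 0.0458 and adjusted p = 0.920 by edgeR).

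Between the doses of one compound, BMD5 against BMD5/50, again 0 of 48 genes were called for each of the 3 parabens by edgeR and by DESeq2, with a background of 0%. The medians were -0.24 for MtP with 1 of 48 genes above 0, -0.20 for EtP with 1 above 0, and 0.30 for PrP with 45 above 0. At an unadjusted p under 0.05 there were 1, 0 and 2 crystallins for MtP, EtP and PrP, against 1.97%, 0.825% and 3.48% of all tested genes. The MtP median became -0.10 without library 2 of MtP BMD5 and -0.40 without its library 1, and the EtP median -0.03 without library 1 of EtP BMD5/50. The PrP median became 0.10, with 0 genes at an unadjusted p under 0.05, without library 1 of PrP BMD5/50, and -0.06 without all libraries numbered 1, but 0.53 without library 3 of PrP BMD5/50. For MtP the gene of smallest p was crygm2b again (log2 fold change -0.72 ± 0.31 SE; unadjusted p = 0.0313 and adjusted p = 0.99983 by edgeR), for EtP it was cryba1a (-0.42 ± 0.26 SE; unadjusted p = 0.117) and for PrP it was cryba2b (0.62 ± 0.27 SE; unadjusted p = 0.0323).

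The one contrast in which crystallins were called was that between replicate numbers. In libraries numbered 1 against those numbered 2 and 3, in a model with the group as a further term, 15 of 48 genes were higher and 5 lower (edgeR adjusted p under 0.05), or 41.7% of the crystallins against 56.4% of all tested genes, with 27.4% of all genes higher and 29% lower. At an unadjusted p under 0.05 it was 25 of 48, or 52.1%, against 60.8% of all tested genes. The crystallins were thus called no more often than genes at large. All 20 M2d genes were above 0, with a median log2 fold change of 0.24 and 12 called higher, while the beta genes had a median of -0.07 with 2 of 12 called, both lower. The other gamma M genes were mixed, with crygm2a, crygm2c and crygmxl2 called higher and crygmx lower. Differences between subfamilies were not tested. Between libraries numbered 2 and 3, 0 of 48 genes were called, against 0.0863% of all tested genes, with 4 of 48 at an unadjusted p under 0.05, or 8.33% against 9.55% of all tested genes.

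**Figure D5:**
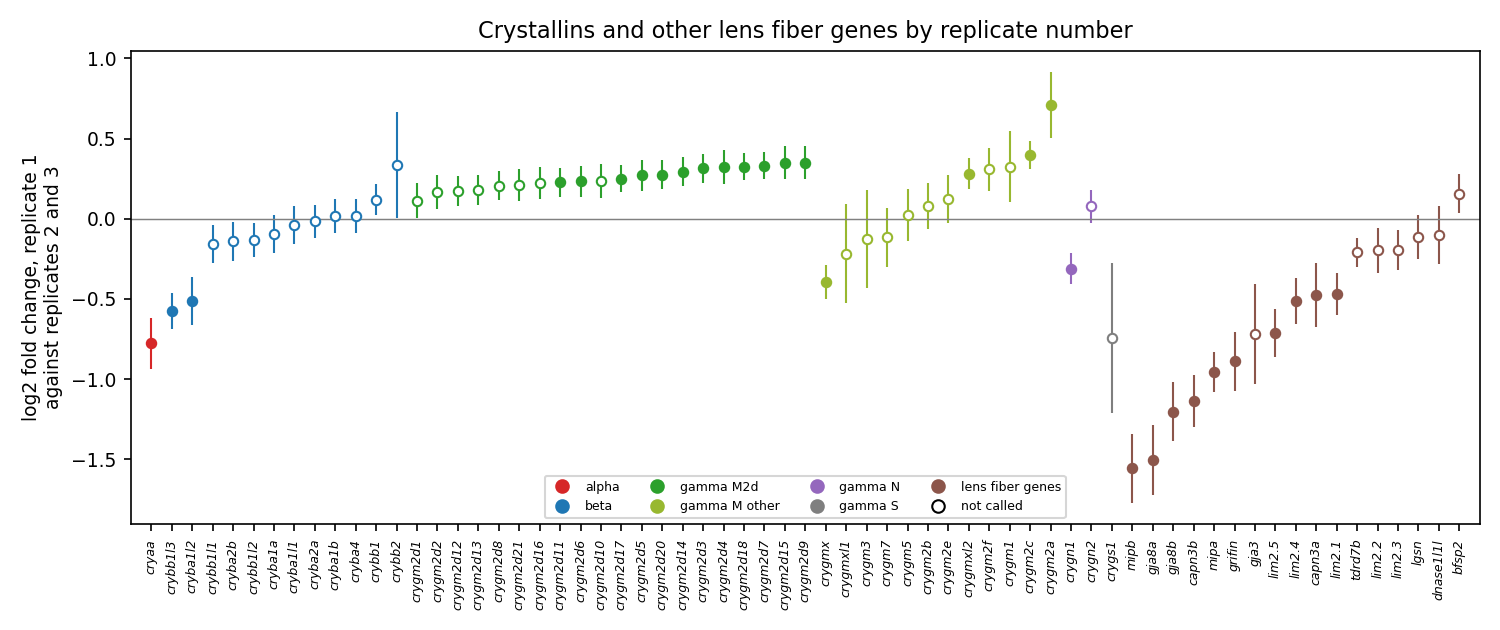
Log2 fold change of libraries numbered 1 against those numbered 2 and 3 for 48 crystallins and 17 other lens fiber genes, with standard errors as bars; filled points passed an adjusted p of 0.05 (edgeR). The M2d genes all lie above 0, at up to 0.35, whereas cryaa, at -0.78, and most lens fiber genes lie below it.

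The alpha A gene went the other way from the M2d array. In libraries numbered 1, cryaa ran from 50.7 to 116.1 CPM with a median of 57.4 CPM. It ran from 59.7 to 228 CPM with a median of 101.2 CPM in those numbered 2, and from 72.7 to 210 CPM with a median of 132.8 CPM in those numbered 3. The log2 fold change was -0.78 ± 0.16 (SE; edgeR adjusted p = 2.3e-04), and cryaa was lower in library 1 than in the mean of the other 2 in 10 of 10 groups, by a median of -0.74 and by as much as -1.95 in EtP BMD5/10. Single libraries did not all follow: cryaa was higher in library 1 than in library 2 in PrP BMD5 (116.1 against 79.8 CPM) and PrP BMD5/10 (115 against 94.4 CPM). The summed M2d genes, in contrast, were higher in library 1 than in that mean in 8 of 10 groups. They were lower in Control and in PrP BMD5/50. Relative to the summed M2d genes, cryaa was lower in library 1 than in that mean in 10 of 10 groups, by a median of -0.90. In PrP BMD5/50, however, this log2 ratio was -8.33 in library 1 and -8.59 in library 3. Of the M2d genes, crygm2d9 had a log2 fold change of 0.35 ± 0.10 (SE; edgeR adjusted p = 0.00509) with medians of 1093, 779 and 855 CPM in libraries numbered 1, 2 and 3. With transcripts annotated as protein coding alone, 16 crystallins were called, 14 of them among the 20, and the 6 lost were crygm2d3, crygm2d5, crygm2d7, crygm2d9, crygm2d11 and crygm2d17, all with retained-intron transcripts. Their log2 fold changes stayed above 0, at 0.15 to 0.24 in that fit and 0.23 to 0.35 with all transcripts, and the part of the retained-intron transcripts was not tested. For crygm2d18 the log2 fold change with all transcripts was 0.32 ± 0.09 (SE; edgeR adjusted p = 0.00237). For crygm2c it was 0.40 ± 0.09 (SE; edgeR adjusted p = 5.3e-04). This low gamma M gene lies in the same stretch of chromosome 9, outside the block of M2d genes.

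The other crystallins called lower in libraries numbered 1 were crybb1l3 at -0.58 ± 0.11, cryba1l2 at -0.51 ± 0.15, crygmx at -0.39 ± 0.11 and crygn1 at -0.31 ± 0.10 (log2 fold change ± SE), all of them outside the M2d array and under 1000 TPM. With limma on log2(TPM + 1), which changes both the values and the test and where the median over all genes itself moved to 0.21, 33 crystallins were called higher and only cryaa was called lower, so the other 4 were called lower only with scaled counts. Of the other lens fiber genes, 10 of 17 were called, all lower, with a median log2 fold change of -0.51. That is 58.8% called, close to the 56.4% of all tested genes, of which 29% were called lower. The largest were mipb, a water channel of the fiber membrane, at -1.56 ± 0.21, gja8a at -1.50 ± 0.22 and gja8b at -1.21 ± 0.18 (SE each). Small heat shock proteins outside the crystallins followed the same direction, with 6 of 7 called lower, or 85.7%. Transcription factors and other regulators of the lens were split, with 69.2% called: 6 of 13 higher, among them pax6a at 0.56 ± 0.07 and six3a at 0.53 ± 0.06, and 3 lower, among them foxe3 at -0.59 ± 0.14 and mafa at -0.58 ± 0.08 (SE each). Of these, pax6a and six3a are also expressed in retina and brain. Among markers of these tissues, 17 of 24 photoreceptor genes and 14 of 15 neuron genes were called higher. Their part in the regulator values was not tested.

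The authors' deposited table tests single transcripts against Control. Its calls (log2 fold change of 1 or more in either direction and unadjusted p under 0.05) include crystallin transcripts in 6 of the 9 comparisons. Shares called are set beside those of all transcripts, but the 2 are not like for like. The crystallin transcripts belong to genes kept for their reads, whereas all transcripts include those of genes under the read minimum. A higher share among the crystallins therefore does not set them apart from other genes. The authors' deposited table calls 3 crystallin transcripts in MtP BMD5/10, EtP BMD5/10, EtP BMD5/50 and PrP BMD5, or 2.91% of them in each, against 0.753% to 1.34% of all transcripts in these comparisons. It calls 2 in MtP BMD5/50 and PrP BMD5/10, or 1.94% against 0.969% and 0.693% of all transcripts, and 0 in MtP BMD5, EtP BMD5 and PrP BMD5/50, against 0.583%, 0.959% and 0.603%. Of these 16 calls, 13 are retained-intron transcripts of M2d genes, all lower than Control. The retained-intron transcript of crygm2d5 has a log2 fold change of -1.91 with q = 0.00417 in MtP BMD5/10, and that of crygm2d9 has -2.82 with q = 0.0391 in EtP BMD5/50, in the authors' deposited table. Retained-intron transcripts took 2.91%, 0.631% and 0.819% of the crygm2d9 reads in EtP BMD5/50 and 16.2%, 11.4% and 6.70% in the Control libraries, which did not overlap. All these calls use the same 3 Control libraries, in which 16.1% to 18.5% of M2d reads were on such transcripts, against a median of 15.0% over the 30 libraries. The one crystallin transcript called higher in the authors' deposited table is that of cryaa in EtP BMD5/10, with a log2 fold change of 1.21, p = 0.0181 and q = 1.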

How the data were processed

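RNA-seq of whole zebrafish larvae was deposited by the authors as 1 table of read counts per transcript, not normalized, with TPM values beside them; a further 30 columns of per-sample values were not used. The authors' deposited table of comparisons gives log2 fold changes with p-values and q-values per transcript. The aligner, counter, genome build and strand setting are not given in the sources, and positions are as the deposited table gives them. Counts were summed per gene symbol (59876 transcripts, 32520 gene IDs, 31846 symbols). Genes were filtered with filterByExpr (minimum count 10), scaled by TMM and tested with edgeR 4.0.16 (quasi-likelihood, R 4.3.3) over 30 libraries and 10 group means, with Benjamini-Hochberg adjustment over 18543 genes and a threshold of 0.05. This gave 21 comparisons between groups: 9 with Control, 9 between compounds and 3 between doses. The replicate number was tested with the group as a term. Standard errors were derived from the F statistic. The tests were also run on simulated data. In the run for the tests between groups, same-numbered libraries did not vary together, so it is not used as support here. Alternatives used DESeq2 1.42.0, limma 3.58.1 on log2(TPM + 1), other scalings, filters and summings, a replicate block, and fewer libraries. TPM values were also used for levels between genes.

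The replicate numbers come from the sample titles. Libraries with the same number deviated from their groups together, with every pair's correlation above 0.1, in 14 of 21 comparisons, 5 of them with Control, and the lowest correlation was -0.138. The main tests between groups held no replicate term, so their p-values, standard errors and intervals are unpaired in these 14 comparisons too. The numbers entered as pairs only in the replicate block and in the differences paired by number.

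The members and gene lists were chosen with earlier results of these data known. Genes were named with values if they were preset representatives of each subfamily, among the 10 of highest TPM, called in a comparison (up to 5 in each direction), of smallest p in one, or of largest or smallest spread, along with lens genes of the lists and genes that overlap a member. The retained-intron shares of single genes were chosen after they were seen.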

Additional observations from a re-analysis of the deposited data

How the results depend on the processing

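In all 21 comparisons between groups, 0 of 48 crystallins were called under every alternative run, among them DESeq2, the replicate block (0 called in each, so that the pairing changed no call) and leaving out each library in turn, where the count stayed at 0. The lowest adjusted p of a crystallin in any of them was 0.0622 (cryaa, EtP BMD5/10, libraries numbered 1 left out). For libraries numbered 1 against those numbered 2 and 3, the count of 20 became 34 with limma on log2(TPM + 1), and it ran from 15 to 29 with 1 library left out, without library 1 of PrP BMD5/10 and without library 1 of PrP BMD5/50; 8 genes were called in all 40 settings. The cryaa log2 fold change in MtP BMD5 against Control, -0.08, turned to 0.10 with limma on log2(TPM + 1), 0.30 without Control library 3 and 0.05 without MtP BMD5 library 1, and ran from -0.27 to 0.30 with 1 library left out. In PrP BMD5/50 against Control, cryaa at 0.19 turned to -0.22 without library 2 of that group and reached 0.56 without Control library 3. The causes were not tested. With 3 libraries per group, the median standard error of about 0.25 on the log2 scale limits what can be told apart, and for genes such as crybb2 and crygs1 so does the number of reads.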
